A study of Homo sapiens with 16 samples.

Results

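All 16 RNA-seq libraries of the series were labelled HCT116, a line of colorectal carcinoma cells from a human donor, and 5 of them carried epithelial expression patterns that did not follow their labels and fell into 2 profiles. Profile A held 2 libraries, the one labelled shNELFE with DMSO and the one labelled shCTL with HMBA. Profile B held 3 libraries, labelled shCTL with EPZ-5676, shNELFE with EPZ-5676 and shNELFE with HMBA. All 5 carry replicate number 1. The members were chosen by their counts over all genes, through which libraries correlate, so every difference between the profiles, and between them and the other libraries, is a description with no p-value.

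The series crossed 2 shRNAs, a control (shCTL) and one against NELFE (shNELFE), with 4 treatments, which were DMSO, the DOT1L inhibitor EPZ-5676, HMBA (hexamethylene bisacetamide) and the 2 compounds together. NELFE encodes a subunit of negative elongation factor, a complex that pauses RNA polymerase II soon after it starts transcription, and HMBA releases the elongation kinase P-TEFb from its inhibitor HEXIM1. Poly(A) RNA was sequenced and the authors deposited raw counts of reads per gene. The 9 libraries used for comparison were all 8 with replicate number 2 and the library labelled shNELFE with EPZ-5676 and HMBA, replicate 1, and the other 2 libraries enter no comparison here, though totals were scaled over all 16. Doses and times are not given in the labels, and nothing there states whether libraries came from separate cultures, so spreads and p-values measure variation between these libraries that may be technical.

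Epithelial cells are joined by E-cadherin, desmosomes and tight junctions and are supported by keratin filaments, with KRT8, KRT18 and KRT19 typical of simple and luminal epithelia. In hormone-responsive luminal epithelium, the estrogen receptor ESR1 acts with the transcription factors FOXA1 and GATA3, and TFF1, GREB1 and PGR are well-known estrogen-induced targets. Intestinal epithelium instead depends on the homeobox factor CDX2.

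Total counts were 20129404 and 20816183 in profile A, 19996043 to 21319666 in profile B and 13428893 to 17867037 in the 9 comparison libraries. Genes of the mitochondrial genome took 8.04% to 8.91% of counts in A, 8.01% to 8.96% in B and 6.12% to 12.2% in the 9. Pearson's r of log2 CPM (library-scaled counts, with totals as given under processing) over 17620 genes was 0.992 between the libraries of A and 0.991 to 0.992 within B. It was 0.910 to 0.918 between A and B, 0.772 to 0.806 between A and the 9, and 0.734 to 0.766 between B and the 9. These r describe genes of shared libraries and carry no test. Of the 8749 genes with at least 10 CPM in A, 2 (0.0229%) differed at least 2-fold between its libraries, and 22 of 8664 (0.254%) did so between the highest and lowest library of B, whereas 2004 of 8905 (22.5%) differed at least 2-fold between the profile means. As the libraries were grouped by such values, they describe the grouping and support nothing further.

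Below, values of single libraries are CPM. Those of A are in the order shNELFE DMSO and shCTL HMBA, and those of B in the order shCTL with EPZ-5676, shNELFE with EPZ-5676 and shNELFE with HMBA. For the comparison libraries the lowest and highest of the 9 are given. These ranges pool different shRNA and treatment labels, between which some genes differ.

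Several epithelial structural genes were abundant in all 5 libraries, while others were low. CDH1, which encodes E-cadherin, had 584 and 559 CPM in A, 1602, 1581 and 1456 CPM in B, and 78.9 to 204 CPM in the 9. EPCAM, an epithelial adhesion molecule, had 160.2 and 160.5 CPM in A, 196, 224 and 237 CPM in B, and 296 to 592 CPM in the 9. KRT19 had 2441 and 2041 CPM in A, 4640, 3638 and 3706 CPM in B, and 698 to 1194 CPM in the 9. The profiles did not overlap for any of these genes, and CDH1 and KRT19 were above, while EPCAM was below, every comparison library. KRT8 reached 10750 and 9400 CPM in A, 17620, 14370 and 13950 CPM in B, and 2266 to 4498 CPM in the 9, although keratins with processed pseudogenes are uncertain in a gene count table. Of 9 desmosome genes, DSG2 and DSC3 stood at least 4-fold below every comparison library in all 5, and 0 stood 4-fold above. DSG2 had 32.2 and 44.2 CPM in A, 6.63, 6.96 and 8.996 CPM in B, and 285 to 331 CPM in the 9. DSC3 had 0 CPM in all 5 and 15.5 to 36.7 CPM in the 9. The keratin KRT23 had 0.0486 and 0 CPM in A, 0.485, 0.641 and 0.298 CPM in B, and 24.7 to 149 CPM in the 9. Of 22 tight junction genes, 1 stood 4-fold above and 0 below. VIM, the mesenchymal intermediate filament vimentin, was at 1.17 and 0.796 CPM in A, 0.108, 0.395 and 0.348 CPM in B, and 2.83 to 8.20 CPM in the 9.

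Intestinal markers were mixed. Of 26 intestinal genes, 16 had 3 counts or fewer in each of the 5 libraries, and 16 likewise in each of the 9. The list summed to 29.2 to 35.2 CPM in A, 136.5 to 140.4 CPM in B and 13.6 to 27.3 CPM in the 9, and 2 members, ASCL2 and TFF3, were at least 4-fold higher and 1, CDX2, at least 4-fold lower in all 5 than in every comparison library. CDX2 had 0 counts in all 5, where 3 counts would be 0.141 to 0.150 CPM, against 3.21 to 16.3 CPM in the 9. KRT20, an intestinal keratin, had 0 and 0 CPM in A, 0.0539, 0.197 and 0.298 CPM in B, and 1.25 to 4.89 CPM in the 9. Of 18 luminal breast genes, 11 stood at least 4-fold above every comparison library in all 5, which held for 605 of all 14999 genes (4.03%). In the other direction, 1 member, AREG, stood at least 4-fold below every comparison library, which held for 843 genes (5.62%). AREG had 6.27 and 9.69 CPM in A, 5.87, 5.87 and 6.31 CPM in B, and 50.3 to 130 CPM in the 9. The summed level of the luminal list was 2796 to 2994 CPM in A, 10710 to 12010 CPM in B and 147 to 305 CPM in the 9. ANKRD30A, SCGB2A2 and PIP, mammary genes of the same list, were at 3 counts or fewer in all 5 libraries. No cell type is assigned here beyond epithelial.

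Sums over markers of other cell types were small beside those of the keratins, and the mesenchymal sum in B lay above all 9 comparison libraries. The summed level of 20 mesenchymal genes was 18.3 to 23.1 CPM in A, 134 to 168 CPM in B and 46.2 to 132 CPM in the 9, with 11 of the 20 at 3 counts or fewer in all 5. Of 13 blood cell genes, 8 were at 3 counts or fewer in all 5, PTPRC (CD45) had no count in any of them, and the list summed to 25.2 to 30.9 CPM in A, 5.82 to 6.31 CPM in B and 10.2 to 32.4 CPM in the 9. Most of the blood sum in A was HBA1, an alpha-globin gene with a near-identical copy, at 30.4 and 24.7 CPM in A and 5.76, 5.13 and 5.17 CPM in B. In bulk RNA, fewer cells of a type and less RNA per cell cannot be told apart, and the part of mixed cells in the differences below was not tested.

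NELFE, the gene targeted by the shRNA, was not low in the libraries labelled shNELFE. NELFE had 147 CPM in the shNELFE library of A and 129 CPM in its shCTL library. In B it had 92.3 and 81.6 CPM in the shNELFE libraries and 101 CPM in the shCTL library. All 5 values were above the highest of the 9, which ran from 12.4 to 79.3 CPM. Within the 9, NELFE had 66.3 to 79.3 CPM under the shCTL label and 12.4 to 21.2 CPM under the shNELFE label. HEXIM1, a gene that HMBA is known to induce, had 73.9 CPM in the HMBA library of A and 67.8 CPM in its DMSO library. In B, HEXIM1 had 46.7 CPM in the HMBA library and 45.5 and 42.9 CPM in the EPZ-5676 libraries, against 65.4 to 375 CPM in the 9. Within the 9, HEXIM1 had 65.4 to 81.9 CPM without HMBA and 323 to 375 CPM with HMBA.

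**Figure D1:**
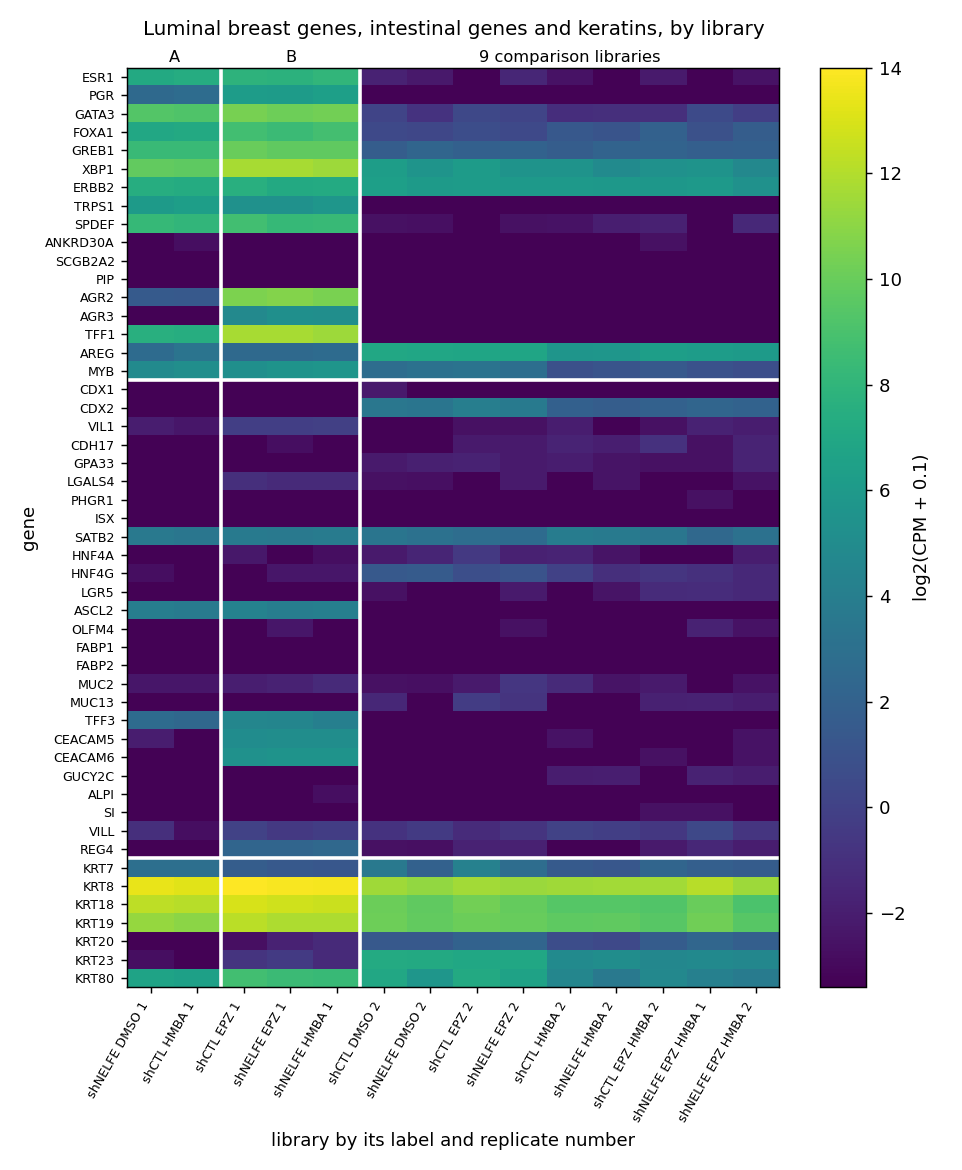
Heat map of luminal breast genes, intestinal genes and keratins (rows, in blocks, without a member that is not reported here) in the libraries of profile A, profile B and the 9 comparison libraries (columns), coloured by log2(CPM + 0.1). ESR1, GATA3, KRT8 and KRT18 are high in the 5 libraries of A and B, and CDX2 has 0 counts in all 5 libraries and 3.21 to 16.3 CPM in the 9.

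A gene was called shared when the lowest of the 5 libraries was at least 4-fold above the highest of the 9, or the highest of the 5 at least 4-fold below the lowest of the 9, on log2 CPM with a prior count of 2. By this rule 605 genes (4.03% of those tested) were higher in both profiles and 843 (5.62%) were lower. Of the 605, 378 lay within 2-fold between A and B, and 317 had 3 counts or fewer in each of the 9. Of the 843, 353 had 3 counts or fewer in each of the 5.

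The shared high genes with the widest gaps included a receptor, a transcription factor, enzymes and secreted proteins. GFRA1, the receptor for glial cell line-derived neurotrophic factor, had 569 and 533 CPM in A, 877, 839 and 796 CPM in B, and 0 counts in the 9. GSTM3, a glutathione transferase, had 424 and 379 CPM in A, 358, 395 and 320.1 CPM in B, and 0 in the 9. SPDEF, an ETS factor of secretory epithelium, had 313 and 262 CPM in A, 421, 300.4 and 327 CPM in B, and 0 to 0.288 CPM in the 9. For GSTM3 and SPDEF the libraries of A and B overlapped, so both genes separate the 5 from the 9 and not A from B. TXNIP, a thioredoxin-binding protein, had 211 and 211 CPM in A, 228, 250.4 and 217 CPM in B, and at most 0.0726 CPM in the 9. FBP1, the gluconeogenic fructose bisphosphatase, had 287 and 248 CPM in A, 476, 426 and 417 CPM in B, and at most 0.313 CPM in the 9. The others among the 10 widest gaps were TSPYL5, IGFBP4, LDOC1, SELENBP1 and TFF1.

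Hormone receptors and their partners belonged to the shared genes. ESR1 had 143 and 166 CPM in A, 226, 216 and 260.4 CPM in B, and at most 0.243 CPM in the 9. GATA3 had 659 and 587 CPM in A, 1350, 1126 and 1268 CPM in B, and 0.363 to 1.32 CPM in the 9. GREB1 had 344 and 341 CPM in A, 1023, 846 and 849 CPM in B, and 3.17 to 4.83 CPM in the 9. All 3 genes were higher in B than in A in every library, but by less than 4-fold. ERBB2, the growth factor receptor, had 173 and 157 CPM in A and 188, 143 and 149 CPM in B, which overlapped, and 43.1 to 85.1 CPM in the 9. It was above every comparison library, but by less than 4-fold, and so was not a shared gene.

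The shared low genes included several with no count in any of the 5. GSTP1, a glutathione transferase, and MSN, the membrane linker moesin, had 0 counts in all 5 and 362 to 913 and 277 to 461 CPM in the 9. LDHB, the B subunit of lactate dehydrogenase, had 0.0973 and 0 CPM in A, 0.108, 0.0987 and 0 CPM in B, and 1007 to 2123 CPM in the 9. ANXA1, the phospholipid-binding annexin, had 0.146 and 0.234 CPM in A, 0.485, 0.592 and 0.746 CPM in B, and 812 to 1594 CPM in the 9. The metallothionein MT1E and the germline-associated genes MAGEA3, MAGEB2 and GTSF1 had 0 counts in all 5, though MT1E and MAGEA3 have near copies and are uncertain. CDCP1 and ACSL5 completed the 10 widest gaps.

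CDKN2A, its neighbour MTAP and some growth factor receptor genes were also shared. MTAP, a methionine salvage enzyme gene next to CDKN2A, had 0.0486 and 0.0468 CPM in A, 0.162, 0 and 0.0497 CPM in B, and 93.3 to 325 CPM in the 9. CDKN2A, a cell cycle inhibitor, had 0 and 0.0468 CPM in A, 0.269, 0.148 and 0.0994 CPM in B, and 11.3 to 24.6 CPM in the 9. The profiles thus lay on the same side of the comparison libraries for both genes. CDKN2B, the other neighbour of CDKN2A and likewise a cell cycle inhibitor, was not shared, with 0.341 and 0.421 CPM in A, 4.63, 3.55 and 4.22 CPM in B, and 3.15 to 31.4 CPM in the 9. Of 11 genes of the EGF receptor family and its ligands, 6 were lower in both profiles, EGFR among them with 1.36 and 1.03 CPM in A, 4.53, 4.44 and 3.03 CPM in B and 54.7 to 176 CPM in the 9, while ERBB4 was higher in both.

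Between the profiles, a gene was called when its fitted difference was at least 4-fold and the libraries of A and B did not overlap. Of 14969 genes, 767 (5.12%) were higher in A and 1247 (8.33%) were lower, or 2014 (13.5%) in either direction. The median log2 difference, A minus B, over all genes was 0.02. Protein-coding genes made up 633 of the 767 and 948 of the 1247, and 411 and 733 differed at least 8-fold. Genes with 3 counts or fewer in each of the 9 comparison libraries numbered 164 of the 767 and 339 of the 1247. The median of the 9 was nearer the level of A for 359 of the genes higher in A and for 803 of those lower in A, and nearer the level of B for 408 and 444.

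**Figure D2:**
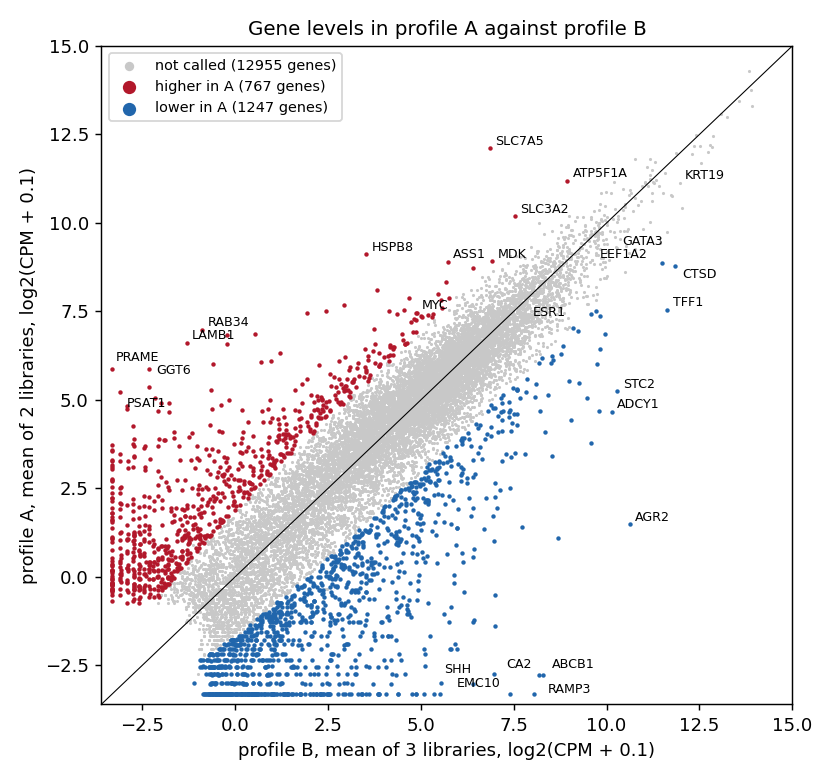
Mean log2(CPM + 0.1) of each gene in profile A (y axis) against profile B (x axis), with genes called higher in A, called lower in A and not called in separate colours and selected genes named. The 767 genes higher in A and the 1247 lower in A lie off the diagonal on either side at all levels.

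The most abundant called genes, chosen after their values were seen, are described here. SLC7A5, the large neutral amino acid transporter on chromosome 16 (87830023 to 87869488, hg38), had 4786 and 4046 CPM in A, 143, 102 and 101 CPM in B, and 673 to 1598 CPM in the 9. Its log2 difference, A minus B, was 5.30 (SE 0.16). SLC3A2, the heavy chain with which it pairs, had 1222 and 1101 CPM in A, 208, 178 and 168 CPM in B, and 228 to 555 CPM in the 9, a log2 difference of 2.69 (SE 0.13). Both chains of the transporter were therefore higher in A than in B and than in any of the 9. HSPB8, a small heat shock protein, had 587 and 523 CPM in A, 13.9, 11.2 and 9.25 CPM in B, and 4.03 to 7.01 CPM in the 9. ASS1, the arginine synthesis enzyme, had 495 and 464 CPM in A, 59.3, 54.6 and 44.8 CPM in B, and 40.1 to 106 CPM in the 9. ATP5F1A, a subunit of the mitochondrial ATP synthase on chromosome 18, had 2484 and 2198 CPM in A and 509, 525 and 445 CPM in B.

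On the other side, CTSD, the lysosomal protease cathepsin D, had 489 and 398 CPM in A, 4419, 3205 and 3354 CPM in B, and 86.7 to 247 CPM in the 9. STC2, a secreted glycoprotein, had 35.3 and 40.1 CPM in A, 1342, 1162 and 1253 CPM in B, and 18.1 to 141 CPM in the 9. ADCY1, an adenylyl cyclase, had 25.5 and 25.2 CPM in A, 1276, 1055 and 1043 CPM in B, and 0 in the 9. These genes differed by log2 values, A minus B, of -3.003 for CTSD, -5.01 for STC2 and -5.43 for ADCY1, with no overlap. EEF1A2, a translation elongation factor with a close relative, EEF1A1, that makes its counts uncertain, had 504 and 429 CPM in A, 3405, 2546 and 2609 CPM in B, and 212 to 336 CPM in the 9.

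A stricter rule asked for at least 10 CPM in every library of one profile and 3 counts or fewer in every library of the other. Of 24084 genes with a count in any of the 5 libraries, 20 (0.0830%) were present in A and near absent in B, and 36 (0.149%) were present in B and near absent in A. Of the 20, 6 had at least 10 CPM in all 9 comparison libraries (PRAME, PSAT1, MCAM, SMARCA1, GSDMD and SLC18B1) and 7 had 3 counts or fewer in each of the 9. Of the 36, 7 had at least 10 CPM in all 9 (among them FBLN1, NTSR1, CA2, C2CD2 and EMC10) and 16 had 3 counts or fewer in each of the 9. Among these 14 libraries, the first kind is near absent in 1 profile and present elsewhere, and the second kind is present in 1 profile alone.

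Proximal promoters of a pair of genes of each kind are shown for their CG pairs. RefSeq windows on GRCh38.p14, from 250 bases before to 50 after the gene start, were at hand for 46 of the 56 genes. In the 5′ to 3′ sequences here the letters CG, the pair at which DNA is methylated and which reads the same on both strands, are in capitals.
PSAT1, chr9:78296875-78297174, plus strand, near absent in B: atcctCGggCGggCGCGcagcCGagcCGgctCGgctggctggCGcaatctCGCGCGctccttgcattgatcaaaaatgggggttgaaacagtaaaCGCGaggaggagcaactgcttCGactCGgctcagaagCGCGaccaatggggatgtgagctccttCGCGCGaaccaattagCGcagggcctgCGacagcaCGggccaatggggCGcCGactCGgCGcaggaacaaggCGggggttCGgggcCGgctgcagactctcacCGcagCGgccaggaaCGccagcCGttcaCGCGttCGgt
EMC10, chr19:50476257-50476556, plus strand, near absent in A: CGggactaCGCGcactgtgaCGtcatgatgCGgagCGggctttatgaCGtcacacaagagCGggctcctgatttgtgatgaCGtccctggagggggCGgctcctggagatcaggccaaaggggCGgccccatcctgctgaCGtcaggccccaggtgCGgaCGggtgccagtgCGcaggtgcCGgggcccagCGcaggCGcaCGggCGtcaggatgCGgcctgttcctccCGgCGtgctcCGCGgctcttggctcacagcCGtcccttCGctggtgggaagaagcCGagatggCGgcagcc
CHGA, chr14:92922900-92923199, plus strand, present in A alone: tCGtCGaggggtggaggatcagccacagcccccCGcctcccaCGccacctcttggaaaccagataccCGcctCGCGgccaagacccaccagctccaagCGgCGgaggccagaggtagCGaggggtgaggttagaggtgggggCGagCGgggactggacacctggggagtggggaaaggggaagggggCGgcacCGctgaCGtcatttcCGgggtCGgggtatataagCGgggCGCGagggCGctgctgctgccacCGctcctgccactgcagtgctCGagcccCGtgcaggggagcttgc
CEACAM6, chr19:41755280-41755579, plus strand, present in B alone: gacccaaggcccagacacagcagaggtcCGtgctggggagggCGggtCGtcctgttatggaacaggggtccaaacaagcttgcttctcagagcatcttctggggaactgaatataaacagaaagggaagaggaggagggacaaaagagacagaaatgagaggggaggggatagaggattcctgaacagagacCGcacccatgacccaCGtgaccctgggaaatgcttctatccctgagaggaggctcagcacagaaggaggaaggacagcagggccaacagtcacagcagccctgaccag
The windows held 37 CG in PSAT1, 29 in EMC10, 24 in CHGA and 5 in CEACAM6. A window was counted as CG-dense with a GC content of at least 50% and at least 0.6 times the CG expected from its base composition. This held for 22 of the 46 (47.8%), against 9837 of 15315 (64.2%) protein-coding windows. It held for 6 of the 9 (66.7%) with a window among genes at 10 CPM or more in all 9 comparison libraries, and for 8 of the 21 (38.1%) among genes with 3 counts or fewer there. No methylation was measured in these libraries, and the counts of CG are a description of the letters.

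The gene with the widest gap in favour of A was PRAME, a cancer-testis antigen on chromosome 22 (22547701 to 22559361, hg38). PRAME had 61.6 and 56.4 CPM in A, 0 counts in B and 29.3 to 41.2 CPM in the 9, so its level was at least 1159-fold higher in A than in B, with the bound set at 3 counts over the group. PSAT1, the aminotransferase of serine synthesis whose window is shown above (gene at 78297143 to 78330093 of chromosome 9), had 36.5 and 37.8 CPM in A, 1 count over the libraries of B (0, 0 and 0.0497 CPM), and 132 to 238 CPM in the 9. Its A over B ratio was 2191, with an exact binomial 95% interval of 393 to 86610 that covers counting error only, as do all intervals and floors here. Among the libraries compared, both genes were expressed in A and in all of the 9 and nearly silent in B alone. GGT6, of the gamma-glutamyltransferase family on chromosome 17, had 61.6 and 55.3 CPM in A, 0.108, 0.0493 and 0.149 CPM in B, and at most 0.129 CPM in the 9, a ratio of 574 (263 to 1565). CHGA, the secretory granule protein chromogranin A, had 29.2 and 27.4 CPM in A, 0, 0 and 0.0994 CPM in B, and 0 in the 9, a ratio of 833 (230.2 to 6890).

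Further genes high in A covered matrix, trafficking and gene control. LAMB1, a laminin chain of the basement membrane, had 91.1 and 105 CPM in A, 0.269, 0.296 and 0.348 CPM in B, and 66.0 to 91.4 CPM in the 9, a log2 difference of 8.33 (SE 0.21). RAB34, a small GTPase, had 134 and 117 CPM in A, 0.431, 0.395 and 0.497 CPM in B, and at most 0.689 CPM in the 9. NR2F1, an orphan nuclear receptor, had 42.9 and 39.8 CPM in A, 0.108, 0.148 and 0.0497 CPM in B, and 8.06 to 122 CPM in the 9. For LAMB1 and NR2F1 the libraries of A lay near or within the range of the 9, while for RAB34 they stood above it. EHF, an epithelial ETS factor, had 11.4 and 12.2 CPM in A, 0 counts in B, and 5.49 to 88.4 CPM in the 9, at least 232-fold higher in A than in B. RASGRF1, a Ras exchange factor, was at least 257-fold higher in A and BGN, the matrix proteoglycan biglycan, at least 231-fold. RCN1, GSDMD, WDR72 and ADGRL2 completed the 14 widest gaps.

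The widest gap in favour of B was that of RAMP3, a partner of the calcitonin receptor family on chromosome 7 (45157791 to 45186302, hg38). RAMP3 had 0 counts in A and in all 9 comparison libraries and 294, 237 and 258 CPM in B, at least 3659-fold higher in B than in A. EMC10, a subunit of the endoplasmic reticulum membrane complex (gene at 50476400 to 50490870 of chromosome 19), had 0 counts in A, 199, 152 and 159.5 CPM in B, and 89.5 to 193 CPM in the 9, at least 2365-fold higher in B. Among the libraries compared, RAMP3 was thus present in B alone and EMC10 missing from A alone. EMC10 also had 0 CPM in the other 2 libraries of the series, which enter no comparison here. ABCB1, the drug efflux pump P-glycoprotein, had 0 and 0.0937 CPM in A, 275, 308 and 361 CPM in B, and 2.20 to 15.1 CPM in the 9, and the B over A ratio was 6611 (1830 to 54600). CA2, a carbonic anhydrase, had 0 and 0.0937 CPM in A, 274, 312 and 285 CPM in B, and 17.6 to 40.6 CPM in the 9. ST6GALNAC2, a sialyltransferase, had 0.0486 and 0.0468 CPM in A, 133, 129 and 112 CPM in B, and 4.54 to 9.30 CPM in the 9. ABCB1, CA2 and ST6GALNAC2 were higher in B than in any of the 9 comparison libraries as well as than in A, whereas EMC10 in B overlapped the 9.

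Several others of the genes high in B encode secreted proteins. SHH, the hedgehog ligand, had 0 and 0.0468 CPM in A, 82.8, 79.4 and 89.5 CPM in B, and at most 0.145 CPM in the 9, a B over A ratio of 3517 (630.9 to 138900). AGR2, a protein disulphide isomerase needed for mucin folding, had 2.77 and 2.62 CPM in A, 1498, 1778 and 1457 CPM in B, and 0 in the 9, with a log2 difference, A minus B, of -9.15 (SE 0.22). AGR3, its neighbour and relative, had 0 counts in A, 27.8, 37.99 and 35.9 CPM in B, and 0 in the 9. CEACAM6, a cell surface adhesion molecule of a family of close copies, had 0 counts in A, 42.7, 47.1 and 46.3 CPM in B, and at most 0.0721 CPM in the 9, at least 634-fold higher in B than in A. No library of A came near B for any of them. MUC5AC, a gel-forming mucin, had 0.0486 and 0 CPM in A and 59.5, 33.7 and 46.0 CPM in B. KLK11, a kallikrein protease, TMEM26, CT83 and PCDH7, a protocadherin, completed the 14 widest gaps.

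**Figure D3:**
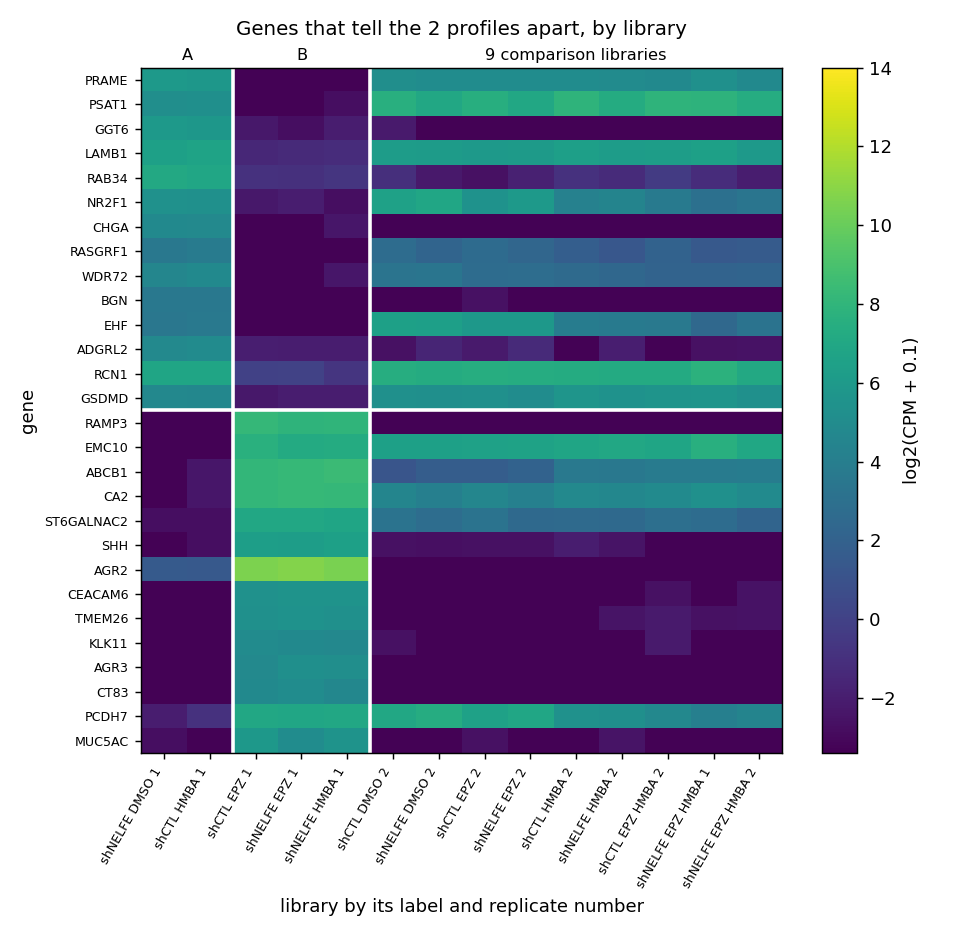
Heat map of the named genes with the widest gaps between the profiles (rows) in the libraries of A, of B and the 9 comparison libraries (columns), coloured by log2(CPM + 0.1). The genes of each direction are uniform within a profile, and the comparison libraries share the level of A for some, of B for others and of neither for the rest.

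Gene lists were read as counts of called members beside the 5.12% and 8.33% of all genes called higher and lower in A. A member could pass the filter on low counts through 1 profile alone, as MUC5AC did through B. List medians therefore describe the tested members only and depend on which members passed. Of 18 luminal breast genes, 15 were tested, 0 were called higher and 4 lower in A, namely PGR, TFF1, AGR2 and AGR3, and their median log2 difference was -0.96, against 0.02 over all genes. TFF1, a secreted trefoil peptide, had 195 and 177 CPM in A, 3352, 3341 and 2845 CPM in B, and 0 in the 9, a log2 difference of -4.06 (SE 0.16). PGR, the progesterone receptor, had 5.74 and 6.51 CPM in A, 73.7, 69.5 and 84.9 CPM in B, and 0 in the 9, a log2 difference of -3.597 (SE 0.17). Both genes were present in A and more abundant in every library of B. TRPS1, a GATA-type repressor of the same list, was not called, with 66.6 and 83.1 CPM in A and 42.7, 43.1 and 52.4 CPM in B.

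Mucins showed a wide difference for few members. Of 12 membrane and secreted mucins, 6 were tested, 0 were called higher and 4 lower in A, with a median log2 difference of -5.00, and the list summed to 65.5 to 76.5 CPM in A, 851 to 1363 CPM in B and 16.1 to 30.2 CPM in the 9. MUC5B, a gel-forming airway and glandular mucin, had 14.4 and 12.9 CPM in A, 996, 564 and 736 CPM in B, and at most 0.290 CPM in the 9. MUC16, which carries the CA125 antigen, had 0.486 and 0.281 CPM in A, 59.8, 44.3 and 42.4 CPM in B, and 2.61 to 13.1 CPM in the 9. MUC1 was high in both profiles, at 60.4 and 50.7 CPM in A, 239, 204 and 197 CPM in B and 0.752 to 2.39 CPM in the 9, and was not called between them. Of the 26 intestinal genes, 8 were tested, 0 were called higher and 4 lower in A, which were CEACAM5, CEACAM6, REG4 and VIL1, none of which is restricted to intestine. CEACAM5 had 0.146 and 0 CPM in A, 33.4, 35.0 and 34.4 CPM in B, and at most 0.0726 CPM in the 9.

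More interferon-stimulated genes were called lower than higher in A. Of 24 members, 19 were tested, 1 was called higher and 8 lower in A, with a median log2 difference of -1.40. The list summed to 208 to 226 CPM in A, 688 to 859 CPM in B and 373 to 617 CPM in the 9. ISG15, a ubiquitin-like modifier, had 2.53 and 2.53 CPM in A, 235, 173 and 221 CPM in B, and 29.1 to 68.2 CPM in the 9, a log2 difference of -6.33 (SE 0.19). IFI6, an interferon-induced mitochondrial protein, had 0.924 and 0.937 CPM in A, 49.3, 44.5 and 85.1 CPM in B, and 3.15 to 13.5 CPM in the 9. For both genes A lay below and B above all 9 comparison libraries. IRF9, a component of the interferon-activated transcription complex, had 3.06 and 2.39 CPM in A, 31.0, 28.6 and 34.3 CPM in B, and 2.97 to 10.1 CPM in the 9. IFI44L went the other way, with 2.67 and 2.95 CPM in A and 0 counts in B.

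Basement membrane and adhesion genes moved apart in both directions. Of 18 laminins and collagens, 11 were tested, 1 was called higher and 6 lower in A, with a median log2 difference of -2.11. The member higher in A was LAMB1, given above. LAMB3, a laminin beta chain, had 0.535 and 0.421 CPM in A, 5.82, 5.03 and 4.82 CPM in B, and 45.8 to 130.5 CPM in the 9, and LAMA3, a laminin alpha chain, had 1.26 and 1.499 CPM in A, 9.43, 9.18 and 9.34 CPM in B, and 12.8 to 26.5 CPM in the 9. Both were thus lowest in A and highest in the 9. Of 15 integrins, 12 were tested, 1 was called higher and 3 lower in A, with a median of -1.20. ITGB4, the integrin chain of hemidesmosomes, had 26.8 and 24.8 CPM in A, 1110, 735 and 821 CPM in B, and 302 to 509 CPM in the 9, a log2 difference of -5.06 (SE 0.18). ITGA2, a collagen receptor chain, had 19.3 and 27.1 CPM in A, 4.90, 5.72 and 5.42 CPM in B, and 40.5 to 160.4 CPM in the 9.

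Of the 20 mesenchymal genes, 8 were tested, 0 were called higher and 4 lower in A, with a median log2 difference of -2.40. FN1, the matrix protein fibronectin, had 5.11 and 4.12 CPM in A, 92.2, 77.2 and 67.2 CPM in B, and 19.5 to 45.0 CPM in the 9, and COL5A1, a fibrillar collagen chain, had 2.43 and 1.78 CPM in A, 33.3, 23.8 and 29.9 CPM in B, and at most 0.125 CPM in the 9. COL3A1 and COL6A3 were the other called members. ZEB1, a mesenchymal transcription factor, had 0 counts in A and 0, 0 and 0.0994 CPM in B, so the called members were matrix genes.

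Lineage and nuclear receptor genes differed one by one. Of 28 nuclear receptors, 18 were tested, 2 were called higher (NR2F1 and NR3C2) and 5 lower in A (NR2F2, PGR, VDR, NR5A2 and THRB), with a median log2 difference of -0.44. NR2F2, the close relative of NR2F1, had 11.5 and 10.6 CPM in A, 215, 208 and 250 CPM in B, and 16.7 to 150.4 CPM in the 9, a log2 difference of -4.31 (SE 0.16). The pair NR2F1 and NR2F2 thus ran in opposite directions. Of 22 FOX, GATA and SOX factors, 10 were tested, 1 was called higher and 3 lower in A, with a median of -1.63. GATA4, an endodermal and cardiac factor, had 8.71 and 7.07 CPM in A, 0.108, 0.0987 and 0.199 CPM in B, and at most 0.156 CPM in the 9. SOX2, a pluripotency and foregut factor, had 0.146 and 0.234 CPM in A, 18.4, 16.6 and 25.4 CPM in B, and at most 0.0726 CPM in the 9. HOXC10, a posterior homeobox gene, had 35.9 and 33.6 CPM in A, 4.96, 4.49 and 4.08 CPM in B, and 0.661 to 1.84 CPM in the 9, and it was the 1 HOXC gene of 7 tested called higher in A, with 1 lower. HOXA10, by contrast, had 0 counts in A, 5.28, 5.58 and 5.76 CPM in B, and 2.57 to 16.6 CPM in the 9, and 3 of 8 HOXA and 3 of 4 HOXB genes tested were called lower in A with 0 higher.

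Groups with more called members higher than lower in A included the imprinted, S100 and liver genes. Of 16 imprinted genes, 11 were tested, 5 were called higher and 1 lower in A, with a median log2 difference of 1.54. H19, an imprinted noncoding RNA, had 51.9 and 44.6 CPM in A, 4.85, 3.21 and 3.03 CPM in B, and 0.840 to 2.36 CPM in the 9, and MEST, an imprinted hydrolase gene, had 244.5 and 222 CPM in A, 54.5, 56.8 and 50.9 CPM in B, and 20.9 to 31.7 CPM in the 9. DLK1, MEG3 and PLAGL1 were the others called higher and CDKN1C, a cell cycle inhibitor, the 1 called lower. Of 14 S100 genes, 10 were tested, 3 were called higher (S100A4, S100A8 and S100A9) and 1 lower (S100P). S100A4, a calcium-binding protein linked to cell motility, had 70.0 and 67.6 CPM in A, 2.53, 1.43 and 1.64 CPM in B, and 127 to 372 CPM in the 9, whereas S100P had 0.438 and 0.328 CPM in A, 22.8, 28.9 and 22.7 CPM in B, and at most 0.121 CPM in the 9. Of 20 liver genes, 5 were tested, of which APOA1, AMBP and CPS1 were called higher and SERPINA1 lower in A.

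Of 16 genes of the ER stress and amino acid response, all 16 were tested and 2 were called higher in A, the serine synthesis genes PSAT1 and PHGDH, with a median log2 difference of -0.02. PHGDH, the first enzyme of that pathway, had 243 and 225 CPM in A, 31.9, 23.6 and 21.3 CPM in B, and 118 to 333 CPM in the 9, a log2 difference of 3.24 (SE 0.14). ATF4, the transcription factor of the response, had 296 and 278 CPM in A and 299, 308 and 273 CPM in B, which overlapped. ATF4 protein was not measured, and the part of ATF4 in these differences was not tested. Of 24 NRF2 and xenobiotic genes, 21 were tested, 2 were called higher (UGT1A6 and SLC7A11) and 6 lower in A. AKR1C3, a ketosteroid reductase, had 0.146 and 0.281 CPM in A, 35.9, 39.2 and 37.8 CPM in B, and 0.691 to 3.88 CPM in the 9, and its close relative AKR1C2 had 4.09 and 3.37 CPM in A and 138, 144 and 117 CPM in B, with some uncertainty from shared sequence.

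Immediate early genes were split. Of 22 members, 20 were tested, 2 were called higher and 3 lower in A, with a median log2 difference of -0.67. MYC, the growth regulator, had 186 and 165 CPM in A, 32.9, 28.8 and 26.9 CPM in B, and 32.2 to 818 CPM in the 9, a log2 difference of 2.61 (SE 0.13). Within the 9, MYC had 644 to 818 CPM without HMBA and 32.2 to 69.0 CPM with HMBA. EGR3, a zinc finger factor, had 41.2 and 41.6 CPM in A, 7.38, 6.37 and 5.72 CPM in B, and 0.787 to 5.15 CPM in the 9. KLF4, an epithelial differentiation factor, had 2.34 and 2.53 CPM in A, 113, 97.7 and 99.0 CPM in B, and 10.5 to 20.3 CPM in the 9, a log2 difference of -5.36 (SE 0.18). EGR1 and ZFP36 were the others called lower in A.

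Of the metabolic groups, 1 of 18 cholesterol synthesis genes was called higher and 1 of 21 tested glycolysis and hypoxia genes lower in A. Cell cycle, p53 target, mitochondrially encoded and elongation groups held no called gene, although the G2/M genes summed to 3221 to 3307 CPM in A, 2053 to 2214 CPM in B and 2619 to 3386 CPM in the 9. All 24 G2/M and mitosis genes, 22 DNA replication genes, 22 p53 target genes, 13 mitochondrially encoded mRNAs and 13 NELF, P-TEFb and DOT1L genes were tested, with 0 called in either direction and medians of 0.67, 0.22, 0.07, -0.09 and 0.30 in that order. CDKN1A, the p53-induced cell cycle inhibitor, had 341 and 293 CPM in A, 205, 179.5 and 163 CPM in B, and 83.4 to 1196 CPM in the 9. DOT1L, the target of EPZ-5676, had 92.1 and 78.8 CPM in A, 68.2, 47.2 and 55.8 CPM in B, and 22.5 to 94.7 CPM in the 9. Both were higher in each library of A than in any of B, by log2 values of 0.84 and 0.62, under the 4-fold limit.

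**Figure D4:**
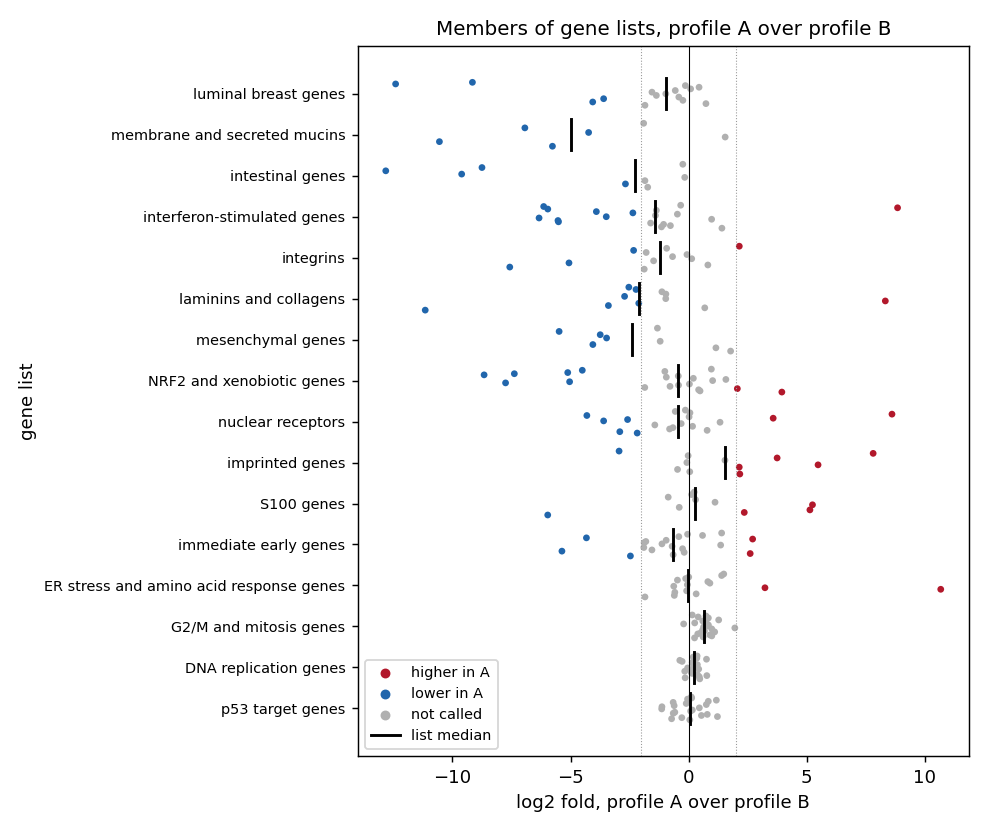
For gene lists (rows), points give the log2 fold of A over B for each tested member, coloured by call. Dotted lines mark 4-fold, and a bar marks the median of the tested members, some of which passed the filter through 1 profile alone. The medians of mucins, mesenchymal genes, laminins and collagens, and interferon-stimulated genes lie left of 0 (lower in A), imprinted genes have a median of 1.54, and the G2/M, DNA replication and p53 target lists, with medians of 0.67, 0.22 and 0.07, have no called member.

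Chromosomes differed in their medians and in their shares of called genes, which is a description without a test. By chromosome, the median log2 difference, A minus B, ran from -0.35 on chromosome 20, where 52 of 410 genes (12.7%) were called lower in A, to 0.92 on chromosome 18, where 28 of 199 (14.1%) were called higher. Over all genes, 8.33% were called lower and 5.12% higher in A. The opposite calls were 2.93% higher on chromosome 20 and 8.04% lower on chromosome 18. Of 247 windows of 10 Mb with at least 20 genes, 18 had a median of -0.5 or lower and 49 of 0.5 or higher. The lowest window, at 60 to 70 Mb of chromosome 20, had a median of -1.47 over 63 genes, with medians over the 9 comparison libraries of 0.05 for A and 1.42 for B. The window at 40 to 50 Mb of chromosome 18 had a median of 1.73, with 0.56 for A and -0.57 for B over the 9. The highest, at 180 to 190 Mb of chromosome 4, had 1.74 over 23 genes, with -0.46 for A and -1.82 for B. Of the abundant genes above, EEF1A2 lies on chromosome 20 and ATP5F1A on chromosome 18. DNA copy number was not measured and its part was not tested.

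**Figure D5:**
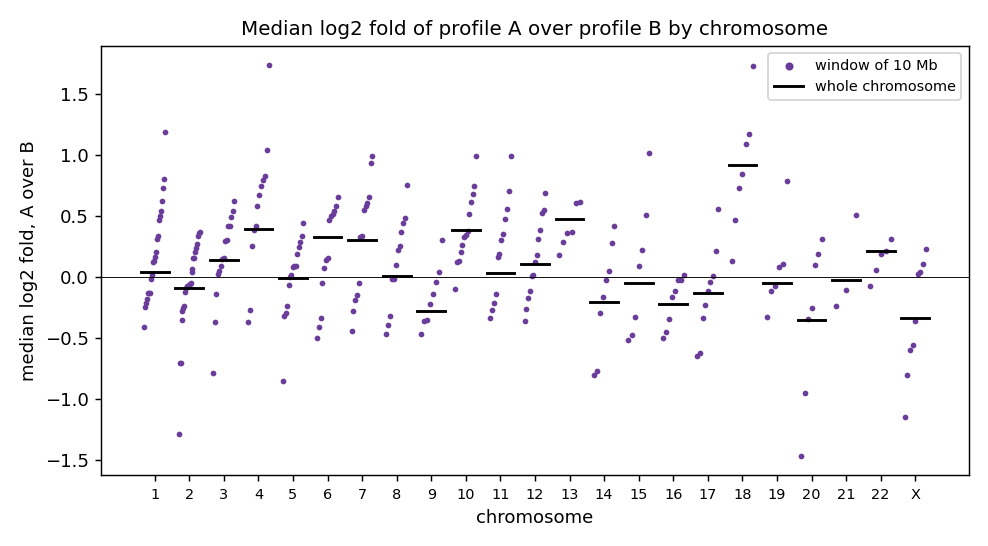
Median log2 fold of A over B in 10 Mb windows with at least 20 genes, by chromosome, ordered by value within a chromosome and not by position, with a bar at the median of the whole chromosome. Windows of chromosome 18 lie above 0 as a rule and the lowest window belongs to chromosome 20.

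Labels inside the profiles did not choose the libraries and were tested with edgeR's quasi-likelihood test, with profile as a term, 2 residual degrees of freedom and Benjamini-Hochberg adjustment over 14969 genes. In A the shRNA and HMBA labels cannot be told apart, since its shNELFE library had DMSO and its shCTL library HMBA, and in B the HMBA library is also a shNELFE library. The HMBA label was set against DMSO in A but against EPZ-5676 in B. In B, presence of HMBA and absence of EPZ-5676 therefore cannot be told apart. For shNELFE against shCTL, 15 genes (0.100%) passed at an adjusted p of 0.05, 9 higher and 6 lower, 172 had an unadjusted p under 0.05 where chance alone would give 748, and DESeq2 called 2. The 3 smallest p-values belonged to a processed transcript, ENSG00000273184, to the pseudogene ARMCX7P and to RGPD5, a member of a family of near-identical copies. ARMCX7P had 0.535 CPM in the shNELFE library and 7.21 CPM in the shCTL library of A, and 0 and 0.199 CPM in the shNELFE libraries and 3.99 CPM in the shCTL library of B (edgeR adjusted p 2.4e-22). Counts of such genes can be split between copies or overlapping transcripts, and these calls are uncertain, with 0 left when no filter on low counts was used. NELFE did not pass, with a log2 difference of -0.00 (SE 0.155, edgeR adjusted p = 1).

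For the HMBA label, 0 genes (0%) passed edgeR's test, 1592 had an unadjusted p under 0.05 where chance alone would give 748, and DESeq2 called 7, of which 1 was higher and 6 lower. The count was unstable: it was 109 with the shRNA label in the model, 157 with no filter on low counts and 1752 without the shNELFE EPZ-5676 library. The smallest p belonged to the readthrough gene INO80B-WBP1, which had 0 counts in the HMBA library and 2.33 CPM in the DMSO library of A, and 0 in the HMBA library and 0.916 and 0.641 CPM in the EPZ-5676 libraries of B (edgeR adjusted p = 0.110). ENSG00000279809 and the readthrough gene SYNJ2BP-COX16 (edgeR adjusted p = 0.122) followed, and readthrough genes share reads with their parts. HEXIM1 had a log2 difference of 0.13 (SE 0.10, edgeR adjusted p = 0.632). A p that misses the threshold does not show that the labels had no effect.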

How the data were processed

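RNA of 16 libraries was measured, and the authors deposited raw counts of reads per gene (60676 rows, Ensembl identifiers, 0 pairs of identical columns). Libraries came from a stranded TruSeq mRNA kit, per the labels' protocols. STAR 2.4.0b, Cufflinks 2.1.1, HTSeq 0.6.1p1, edgeR and hg38 are named, per the submitters' processing notes, while no source used here gives the strand setting or annotation release, so overlapping and antisense genes and close copies are uncertain. Symbols were found for 60357 rows and GENCODE release 29 positions for 58503.

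Computed here were log2 differences and SEs from edgeR 4.0.16 (R 4.3.3, limma 3.58.1) on the 5 libraries, with TMM scaling and filterByExpr by profile (14969 genes). CPM of single libraries use totals TMM-scaled over all 16. Lists' medians were computed again with genes of no count in a profile set at their bound. That moved the cancer-testis median to 4.88 in place of 6.41 (2 of 22 tested, 1 called, PRAME) and the HOXB median to -3.49 in place of -5.07. Promoter windows are from RefSeq. Y-linked and X-inactivation genes were left out. Figures used matplotlib 3.10.9 in Python 3.11.15. The code was tested on simulated counts.

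Genes were named by rule: NELFE, HEXIM1, DOT1L, MYC, CDKN1A, VIM, CDH1, EPCAM and KRT19; the 14 protein-coding genes with the widest gap and at least 10 CPM in each direction; the 10 widest shared gaps; up to 4 called members a list; and the 3 smallest p-values of each label test. Members of lists that were not called, apart from markers at or near 0, were named after their values were seen. The profiles, lists and rules were chosen with earlier results of these data known. Alternatives were other scalings, no filter, other thresholds, DESeq2 1.42.0 and leaving out each library. Results for a few genes are not reported here.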

Additional observations from a re-analysis of the deposited data

How the results depend on the processing

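The A and B counts moved most with the filter and the fold. Higher in A were 1448 genes with no filter, 2271 at 2-fold and 411 at 8-fold, and lower in A were 2070, 2705 and 733. Near absent in B were 36 at 5 CPM and 8 at 20 CPM, and near absent in A were 68 and 18. At 2-fold, 1193 genes were higher and 1732 lower in both profiles than in the 9. Other scalings and DESeq2 gave 742 to 810 higher and 1198 to 1280 lower in A. Leaving out each library gave 753 to 827 higher and 1177 to 1482 lower in A, 20 to 23 near absent in B, 37 to 44 near absent in A, and 615 to 634 higher and 865 to 933 lower in both. The shRNA label called 0 genes with no filter, 2 by DESeq2, 31 with the HMBA label in the model and 9 to 13 with a library left out. The HMBA label called 4 under RLE scaling, 157 with no filter, 7 by DESeq2, 109 with the shRNA label in the model, and 4 to 1752 with a library left out, the highest without the shNELFE EPZ-5676 library, with 1 residual degree of freedom. The cause was not tested. Of the list medians computed under other settings, 16 were marked as moved, 1 as reversed and 106 as the same. The median of MHC class II genes, -1.44 over 4 tested members, was 0.46 with no filter, where more members of few counts enter. None of 1463 values for 147 named genes changed sign, but most of these genes were chosen for wide gaps in these same libraries, so little else could follow. Of the values, 88 were marked as moved, and the largest shift was 4.36 on the log2 scale. No paired analysis was possible because all 5 libraries carry replicate number 1. Profiles of 2 and 3 libraries limit every spread given.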
